A study of Mus musculus with 10 samples.

Results

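The genes described here are 32 enzymes and regulators of cholesterol and fatty acid synthesis, measured in islets of mice that stayed sedentary or ran on a treadmill. They were listed by function, with earlier results of these data known. The sterol set has 19 genes: Srebf2, Insig1, Acat2, Hmgcs1, Mvk, Mvd, Idi1, Fdps, Fdft1, Sqle, Lss, Cyp51, Msmo1, Nsdhl, Hsd17b7, Ebp, Sc5d, Dhcr7 and Stard4. The fatty acid set has 13 genes: Srebf1, Acly, Acss2, Me1, Acaca, Acacb, Fasn, Elovl5, Elovl6, Scd1, Scd2, Fads1 and Fads2. All 32 were found among the 52178 genes of the deposited table, and all 32 were abundant enough to be tested. The smallest estimated count of any of them in a library was 39.

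RNA sequencing libraries were made from islets of male C57Bl/6 retired breeders, 5 from sedentary mice (numbered 1 to 5) and 5 from mice that ran on a treadmill (numbered 6 to 10). After 3 days of acclimatization, the exercise group ran over 2 weeks on 5 days of each week, 1 hour daily, with the belt inclined by 5 degrees and moving at 17 cm/s. The labels name no transgene or drug for either group. Islets of both groups were freed with collagenase, picked by hand and placed in medium with 11 mM glucose, and the age of the animals and the number of animals behind each library were not given. Nothing in the sources used here ties a library to one animal, and each p-value is therefore set against variation among libraries, some of which may be technical.

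Cells build cholesterol from acetyl-CoA through mevalonate, farnesyl diphosphate and squalene, and then trim lanosterol in a series of steps to the final sterol. Fatty acids are made from the same acetyl-CoA by carboxylation to malonyl-CoA, chain building, elongation and desaturation. Transcription factors of the SREBP family activate the genes of both pathways when membrane sterol is low, SREBP-2 mainly those of cholesterol synthesis and SREBP-1 mainly those of fatty acid synthesis, and INSIG proteins hold the SREBPs back when sterol is plentiful. In beta cells, lipid synthesis from glucose carbon and the cholesterol content of secretory granules have both been linked to insulin release.

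The promoters of the genes were read for short letters, which the choice of genes did not use. RefSeq promoter sequence (GRCm38.p6, the 250 bases before the annotated start) was found for 25 of the 32 genes, 15 of the sterol set and 10 of the fatty acid set. Dhcr7, Srebf1 and Me1 have several annotated starts, as have 2312 of the 11487 genes tested that have a promoter entry, and a gene was counted where any of its windows held the letters. The letters CCAAT, read on either strand (ATTGG is the same box on the other strand), were present for 14 of the 15 sterol genes (Acat2 lacked them) and for 6 of the 10 fatty acid genes, against 40.0% of the 11487 genes tested. Counted by window, the shares were 82.4% of 17 sterol, 53.8% of 13 fatty acid and 34.8% of all 14670 windows. The GC box letters GGGCGG on either strand were present for 15 of the 15 sterol genes and for 5 of the 10 fatty acid genes, against 61.2% of genes tested. The sterol response element letters TCACNCCAC were found in the Hmgcs1 promoter alone, 1 of the 15 sterol and 0 of the 10 fatty acid genes, against 1.18% of genes tested. The E-box letters CACGTG were found for 4 sterol genes and 1 fatty acid gene, against 9.45% of genes tested. These matches describe letters only. The CCAAT letters were found for 8 of the 9 sterol genes that were lower in the exercise libraries and for 6 of the 6 that did not pass the test. To show the box in genes that were lower and in a gene that did not pass (Msmo1), 4 promoters are printed, from 5′ to 3′ on the strand of the gene and ending at the base before the annotated start, with the CCAAT or ATTGG letters and the TCACNCCAC letters in capitals. The Hmgcs1 window is chr13:119690101-119690350 on the plus strand, that of Mvk is chr5:114444019-114444268 on the plus strand, that of Idi1 is chr13:8885356-8885605 on the plus strand, and that of Msmo1 is chr8:64733579-64733828 on the minus strand.
Hmgcs1: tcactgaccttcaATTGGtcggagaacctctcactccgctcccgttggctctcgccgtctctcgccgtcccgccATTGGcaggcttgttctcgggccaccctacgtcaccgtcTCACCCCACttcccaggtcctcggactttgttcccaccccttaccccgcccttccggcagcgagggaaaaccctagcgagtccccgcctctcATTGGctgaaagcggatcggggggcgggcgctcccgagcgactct
Mvk: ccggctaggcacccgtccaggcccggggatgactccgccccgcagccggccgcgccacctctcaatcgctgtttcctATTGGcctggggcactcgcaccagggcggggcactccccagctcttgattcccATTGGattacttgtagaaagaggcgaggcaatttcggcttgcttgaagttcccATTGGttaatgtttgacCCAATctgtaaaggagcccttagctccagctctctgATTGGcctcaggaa
Idi1: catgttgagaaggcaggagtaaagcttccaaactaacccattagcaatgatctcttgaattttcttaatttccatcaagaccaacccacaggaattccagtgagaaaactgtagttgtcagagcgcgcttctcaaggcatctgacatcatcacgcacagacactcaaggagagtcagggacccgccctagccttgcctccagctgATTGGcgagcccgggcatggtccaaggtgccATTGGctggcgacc
Msmo1: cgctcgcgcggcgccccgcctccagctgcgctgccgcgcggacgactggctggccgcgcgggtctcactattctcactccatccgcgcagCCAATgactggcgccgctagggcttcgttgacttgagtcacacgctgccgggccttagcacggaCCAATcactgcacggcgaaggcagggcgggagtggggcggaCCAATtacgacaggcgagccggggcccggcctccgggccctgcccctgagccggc

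The libraries held 15081922 to 23222704 estimated counts each. Levels are given as CPM (the counts of a gene relative to the library's total) after scaling by TMM, a method that sets libraries to a common level from the bulk of their genes, and they do not allow one gene to be compared with another because they are not divided by transcript length. Beta cell markers were high in 8 libraries: the mean log2 CPM of 9 of them was 10.35 to 10.65 in sedentary 3 to 5 and 10.21 to 10.75 in the exercise libraries. It was 6.71 in sedentary 1 and 8.66 in sedentary 2, which stand apart. The same 2 libraries had the highest levels of 13 small intestine markers, with mean log2 CPM of 8.76 and 9.58, against 6.42 to 7.14 in sedentary 3 to 5 and 2.66 to 4.69 in the exercise libraries. All 13 of these intestinal genes fell in exercise against sedentary, with a median log2 fold change of -4.55, and all 13 passed without sedentary 1 and 2 as well (median -3.13). Of 13 acinar markers, 6 rose with all 10 libraries (median log2 fold change 1.26) and 9 without sedentary 1 and 2 (median 1.38), and their mean log2 CPM was 11.22 to 12.34 in the sedentary and 12.43 to 13.86 in the exercise libraries. Summed as reads, acinar markers exceeded beta cell markers in exercise 9 (348095 against 134503 CPM) and exercise 6 (224425 against 183626 CPM). They did so in sedentary 1 and 2 as well, and the beta cell sum was the larger in the remaining libraries. In bulk RNA, fewer cells of a type and less RNA per cell cannot be told apart. Results are therefore given with all 10 libraries and again without sedentary 1 and 2.

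In the libraries of exercised mice, several cholesterol pathway genes fell, among them Acat2 and Hmgcs1 of its first steps, the late reductase Dhcr7 and the sterol carrier Stard4. Between those steps, Mvd, Fdps, Fdft1, Sqle, Lss, Msmo1 and Nsdhl did not pass, and neither did most fatty acid genes. In edgeR's quasi-likelihood test, with Benjamini-Hochberg adjustment over the 15298 genes tested and a threshold of 0.05, 10 of the 19 sterol genes and 2 of the 13 fatty acid genes fell. Over all genes tested, 11.4% were lower by this rule and 2.44% higher. The sterol count was 1 with limma-voom in place of edgeR, and 0 with the small intestine marker level as a covariate. No gene of either set rose with edgeR, none was higher at an unadjusted p under 0.05 with all 10 libraries, and DESeq2 and limma-voom called none higher. At an unadjusted p under 0.05, 13 sterol and 3 fatty acid genes were lower. The median log2 fold change was -0.74 over the 19 sterol genes, with 17 of them below 0, and -0.08 over the 13 fatty acid genes, with 8 below 0, against -0.00 over all genes tested. With upper-quartile scaling the fatty acid median turned to 0.04. Every exercise library was below every sedentary library in 10 of the 19 sterol and 2 of the 13 fatty acid genes, the same 12 that fell. This order comes from the values behind the calls and adds no support to them. Over all genes, 11.4% had every exercise library below every sedentary library, and 6.24% had the groups apart in the other direction, which none of the 32 did.

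Without sedentary 1 and 2, 8 of the 19 sterol genes were lower, and all 8 were among the 10. Both fatty acid genes, Me1 and Fads2, were lower in this fit as well, and none of the 32 genes rose, with Acacb and Fasn higher at an unadjusted p under 0.05. The background here was 8.68% lower and 4.1% higher of 15692 genes. The median log2 fold change of the sterol set was then -0.43, that of the fatty acid set -0.02 and that of all genes 0.03. The sterol count depended on single libraries: it was 5 without sedentary 1, 6 without sedentary 2, 3 without exercise 6, 2 without exercise 7, 3 without exercise 8, 0 without exercise 9 (12 at an unadjusted p under 0.05) and 1 without exercise 10. The count of fatty acid genes was 1 without sedentary 2 and 0 without sedentary 1 or without any one exercise library (2 or 3 at an unadjusted p under 0.05). Idi1 missed the threshold without exercise 9 alone (edgeR adjusted p = 0.0503), Cyp51 without exercise 9 or 10 (edgeR adjusted p up to 0.0629), and Stard4 without any one exercise library (up to 0.0581). Acat2, Hsd17b7, Sc5d, Dhcr7 and Me1 missed it without sedentary 1, sedentary 2 or any one exercise library (up to 0.0962), and Mvk and Fads2 without sedentary 1 or any one exercise library (up to 0.0848). Hmgcs1 missed it without exercise 6, 7, 9 or 10, and Ebp without exercise 7, 8, 9 or 10 (up to 0.0574 and 0.0612). All 12 genes had negative log2 fold changes in each of these fits.

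**Figure D1:**
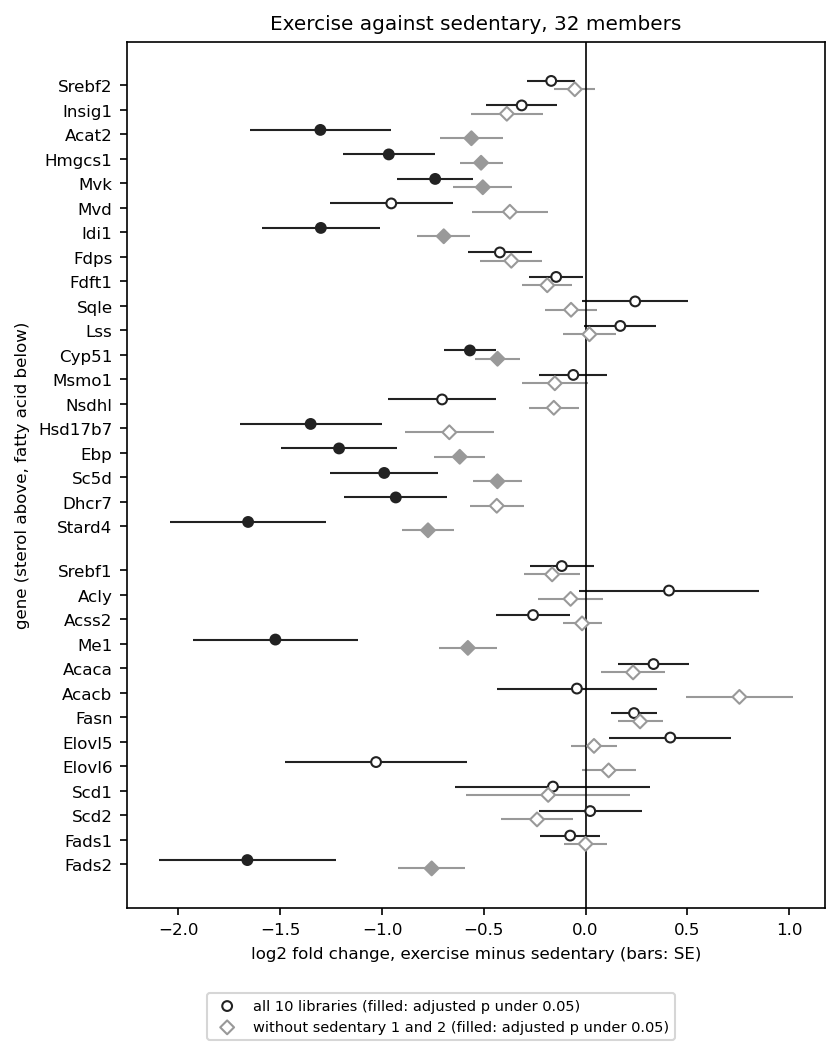
Log2 fold change of exercise against sedentary for the 32 genes, with all 10 libraries and without sedentary 1 and 2. Points are edgeR estimates, bars are 1 standard error and filled points passed an adjusted p of 0.05. Filled points number 10 of 19 in the sterol set and 2 of 13 in the fatty acid set with all 10 libraries.

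The first steps of cholesterol synthesis held 4 of the genes that fell. Acat2 (ENSMUSG00000023832), which joins acetyl-CoA units to acetoacetyl-CoA, was at 18.5, 25.8, 8.65, 7.56 and 9.20 CPM in sedentary 1 to 5 and at 6.31, 6.18, 6.16, 5.02 and 4.54 CPM in exercise 6 to 10. Its means were 13.9 ± 7.95 and 5.64 ± 0.807 CPM (SD, n = 5), and its log2 fold change was -1.30 ± 0.35 (standard error; edgeR adjusted p = 0.0342). The groups did not overlap, and sedentary 1 and 2 were far above sedentary 3 to 5. Hmgcs1 (ENSMUSG00000093930), the HMG-CoA synthase whose promoter carries the TCACNCCAC letters, was at 77.8, 76.8, 41.9, 44.4 and 38.1 CPM in the sedentary and 25.6, 28.8, 32.5, 30.3 and 25.5 CPM in the exercise libraries. Its means were 55.8 ± 19.8 and 28.5 ± 3.02 CPM (SD, n = 5), a log2 fold change of -0.97 ± 0.22 (edgeR adjusted p = 0.0205). Sedentary 3 to 5 formed a tight group between the high pair and the exercise libraries. Without the high pair the log2 fold changes were -0.56 for Acat2 (edgeR adjusted p = 0.0423) and -0.51 for Hmgcs1 (edgeR adjusted p = 0.0114).

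Mvk (ENSMUSG00000041939), mevalonate kinase, had levels of 8.19, 10.8, 6.93, 7.30 and 6.22 CPM in sedentary 1 to 5 and 5.03, 4.04, 5.35, 4.57 and 4.59 CPM in exercise 6 to 10. Its means of 7.88 ± 1.76 and 4.72 ± 0.4999 CPM (SD, n = 5) gave a log2 fold change of -0.74 ± 0.19 (edgeR adjusted p = 0.0282). In this gene the high pair stood less far from the other sedentary libraries, and the value without it was -0.51 (edgeR adjusted p = 0.0486). Idi1 (ENSMUSG00000058258), which turns isopentenyl diphosphate into its reactive isomer, was at 40.9, 47.8, 23.2, 18.1 and 18.2 CPM in the sedentary and 12.5, 12.6, 13.3, 11.7 and 10.1 CPM in the exercise libraries. With means of 29.6 ± 13.8 and 12.02 ± 1.24 CPM (SD, n = 5), its log2 fold change was -1.30 ± 0.29 (edgeR adjusted p = 0.0172). The 5 exercise libraries lay within 10.1 to 13.3 CPM, and the lowest sedentary library was at 18.1 CPM. Without sedentary 1 and 2, Idi1 had a log2 fold change of -0.70 (edgeR adjusted p = 0.00713).

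Between these steps, Mvd, which makes isopentenyl diphosphate, ranged over 3.88 to 9.92 CPM in the sedentary and 2.82 to 4.19 CPM in the exercise libraries and did not pass (log2 fold change -0.95, edgeR adjusted p = 0.0606). Fdps, the farnesyl diphosphate synthase, acts after Idi1. It ranged over 28.6 to 39.8 and 20.7 to 32.9 CPM and did not pass (log2 fold change -0.42, edgeR adjusted p = 0.0960). Both had overlapping groups. In the other 8 libraries the log2 fold changes were -0.37 for Mvd and -0.36 for Fdps (edgeR adjusted p = 0.227 and 0.151).

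The steps at squalene and lanosterol ring closure did not pass the test. Sqle (ENSMUSG00000022351), squalene epoxidase, was at 22.8, 31.8, 59.2, 65.1 and 48.6 CPM in sedentary 1 to 5 and at 56.2, 55.7, 60.6, 44.4 and 52.5 CPM in exercise 6 to 10. Its means were 45.5 ± 17.9 and 53.9 ± 6.03 CPM (SD, n = 5), a log2 fold change of 0.24 ± 0.26 (edgeR adjusted p = 0.503). Sedentary 1 and 2 were the lowest of the 10 libraries, and the exercise range lay within that of sedentary 3 to 5 but for exercise 9 below it. Fdft1, squalene synthase, spanned 26.2 to 35.4 CPM in the sedentary and 22.2 to 32.4 CPM in the exercise libraries (log2 fold change -0.14, edgeR adjusted p = 0.434). Lss, which closes the rings to lanosterol, spanned 14.6 to 29.8 and 21.4 to 27.3 CPM (log2 fold change 0.17, edgeR adjusted p = 0.489). For all 3 enzymes the groups overlapped. With sedentary 1 and 2 left out, the log2 fold changes were -0.07 for Sqle, -0.19 for Fdft1 and 0.02 for Lss (edgeR adjusted p = 0.746, 0.350 and 0.943).

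From lanosterol onward, 5 of the 7 measured enzymes of the set fell. Cyp51 (ENSMUSG00000001467), the lanosterol 14-demethylase, was at 35.9, 36.8, 32.5, 31.7 and 26.6 CPM in the sedentary and 23.8, 23.4, 23.8, 19.7 and 19.6 CPM in the exercise libraries. Its means of 32.7 ± 4.02 and 22.1 ± 2.19 CPM (SD, n = 5) gave a log2 fold change of -0.57 ± 0.13 (edgeR adjusted p = 0.0177). Of the 12 genes that fell it had the smallest fold change and the smallest gap within the sedentary group, where the mean of sedentary 1 and 2 was 1.20 times that of sedentary 3 to 5. Without that pair its log2 fold change was -0.43 (edgeR adjusted p = 0.0313).

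Hsd17b7 (ENSMUSG00000026675), the sterol 3-keto reductase, was at 10.7, 12.6, 5.99, 4.36 and 3.92 CPM in sedentary 1 to 5 and 3.80, 2.86, 2.24, 2.83 and 2.93 CPM in exercise 6 to 10. Its means were 7.505 ± 3.90 and 2.93 ± 0.557 CPM (SD, n = 5) and its log2 fold change was -1.35 ± 0.35 (edgeR adjusted p = 0.0309). The lowest sedentary and highest exercise libraries were almost level, at 3.92 and 3.80 CPM, and without sedentary 1 and 2 the test was not passed (log2 fold change -0.67, edgeR adjusted p = 0.0757). Ebp (ENSMUSG00000031168), the sterol isomerase that moves the ring double bond, was at 41.95, 51.3, 18.7, 20.1 and 24.6 CPM in the sedentary and 16.1, 13.7, 12.3, 12.6 and 12.9 CPM in the exercise libraries. It averaged 31.3 ± 14.5 and 13.5 ± 1.56 CPM (SD, n = 5), a log2 fold change of -1.21 ± 0.29 (edgeR adjusted p = 0.0216). The exercise libraries varied little and all lay below sedentary 3, the lowest sedentary library. Ebp passed without the high pair too (log2 fold change -0.62, edgeR adjusted p = 0.0108).

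Sc5d (ENSMUSG00000032018), the lathosterol oxidase, was at 56.7, 58.97, 28.7, 27.1 and 26.3 CPM in the sedentary and 16.04, 22.7, 19.7, 19.1 and 22.02 CPM in the exercise libraries. The means of 39.6 ± 16.7 and 19.9 ± 2.63 CPM (SD, n = 5) gave a log2 fold change of -0.99 ± 0.26 (edgeR adjusted p = 0.0343). Dhcr7 (ENSMUSG00000058454), the 7-dehydrocholesterol reductase, was at 33.3, 39.8, 18.4, 19.4 and 17.9 CPM in sedentary 1 to 5 and 15.98, 15.2, 12.8, 10.8 and 12.7 CPM in exercise 6 to 10. These 2 enzymes had the same arrangement, with sedentary 1 and 2 well above sedentary 3 to 5 (ratios of 2.11 and 1.97) and all exercise libraries lowest. Dhcr7 averaged 25.8 ± 10.1 and 13.5 ± 2.10 CPM (SD, n = 5), a log2 fold change of -0.93 ± 0.25 (edgeR adjusted p = 0.0364). Without the high pair, Sc5d passed at a log2 fold change of -0.43 (edgeR adjusted p = 0.0457) and Dhcr7, at -0.44, did not (edgeR adjusted p = 0.0595). Msmo1 and Nsdhl, which act with Hsd17b7 in removing methyl groups from the sterol, did not pass. Msmo1 spanned 31.9 to 46.4 CPM in the sedentary and 28.9 to 48.3 CPM in the exercise libraries (log2 fold change -0.06, edgeR adjusted p = 0.805). Nsdhl spanned 7.76 to 18.2 and 6.43 to 7.86 CPM (log2 fold change -0.71, edgeR adjusted p = 0.0986), with its 2 highest values in sedentary 1 and 2. Without that pair their log2 fold changes were -0.15 and -0.16 (edgeR adjusted p = 0.575 and 0.439).

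Stard4 (ENSMUSG00000024378), a soluble carrier that moves cholesterol between membranes and a known SREBP-2 target, had the largest fold change of the sterol set. It was at 66.3, 93.4, 30.3, 25.5 and 23.2 CPM in sedentary 1 to 5 and at 14.3, 16.9, 17.1, 14.04 and 13.2 CPM in exercise 6 to 10. With means of 47.7 ± 30.95 and 15.1 ± 1.77 CPM (SD, n = 5), its log2 fold change was -1.66 ± 0.38 (edgeR adjusted p = 0.0203). The sedentary SD was set by sedentary 1 and 2, which averaged 3.04 times sedentary 3 to 5, yet those 3 libraries, at 23.2 to 30.3 CPM, were all above the highest exercise library. Without the high pair the log2 fold change was -0.77 (edgeR adjusted p = 0.00427).

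The regulators Srebf2, Insig1 and Srebf1 did not pass. Srebf2 (ENSMUSG00000022463), which encodes SREBP-2, was at 112, 111, 102, 104 and 80.97 CPM in the sedentary and 89.7, 88.4, 94.1, 94.2 and 87.9 CPM in the exercise libraries. It averaged 102 ± 12.5 and 90.9 ± 3.04 CPM (SD, n = 5), a log2 fold change of -0.17 ± 0.12 (edgeR adjusted p = 0.316). Sedentary 1 to 4 lay above all exercise libraries and sedentary 5 below all of them. Insig1 (ENSMUSG00000045294), an SREBP target that retains the SREBPs in the endoplasmic reticulum, was at 79.3, 85.6, 89.1, 122 and 85.4 CPM and 91.7, 83.9, 73.9, 67.2 and 53.9 CPM, with means of 92.2 ± 16.8 and 74.2 ± 14.7 CPM (SD, n = 5). Its log2 fold change was -0.31 ± 0.17 (edgeR adjusted p = 0.223). The groups overlapped, with sedentary 4 highest and exercise 10 lowest. Srebf1 (ENSMUSG00000020538), which encodes SREBP-1 and belongs to the fatty acid set, was at 53.7, 76.99, 66.00, 89.02 and 68.6 CPM in the sedentary and 76.3, 67.4, 69.2, 60.5 and 53.4 CPM in the exercise libraries. Its means were 70.9 ± 13.1 and 65.3 ± 8.73 CPM (SD, n = 5; log2 fold change -0.12 ± 0.16, edgeR adjusted p = 0.591). In the other 8 libraries the log2 fold changes of Srebf2, Insig1 and Srebf1 were -0.05, -0.39 and -0.16 (edgeR adjusted p = 0.766, 0.185 and 0.460). The Srebf1 to Srebf2 ratio within a library, in log2 counts, was -0.54 ± 0.34 in the sedentary and -0.49 ± 0.19 in the exercise libraries (SD, n = 5), a difference of 0.05 (exact two-sided permutation p = 0.770, adjusted over 3 ratios 0.770).

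**Figure D2:**
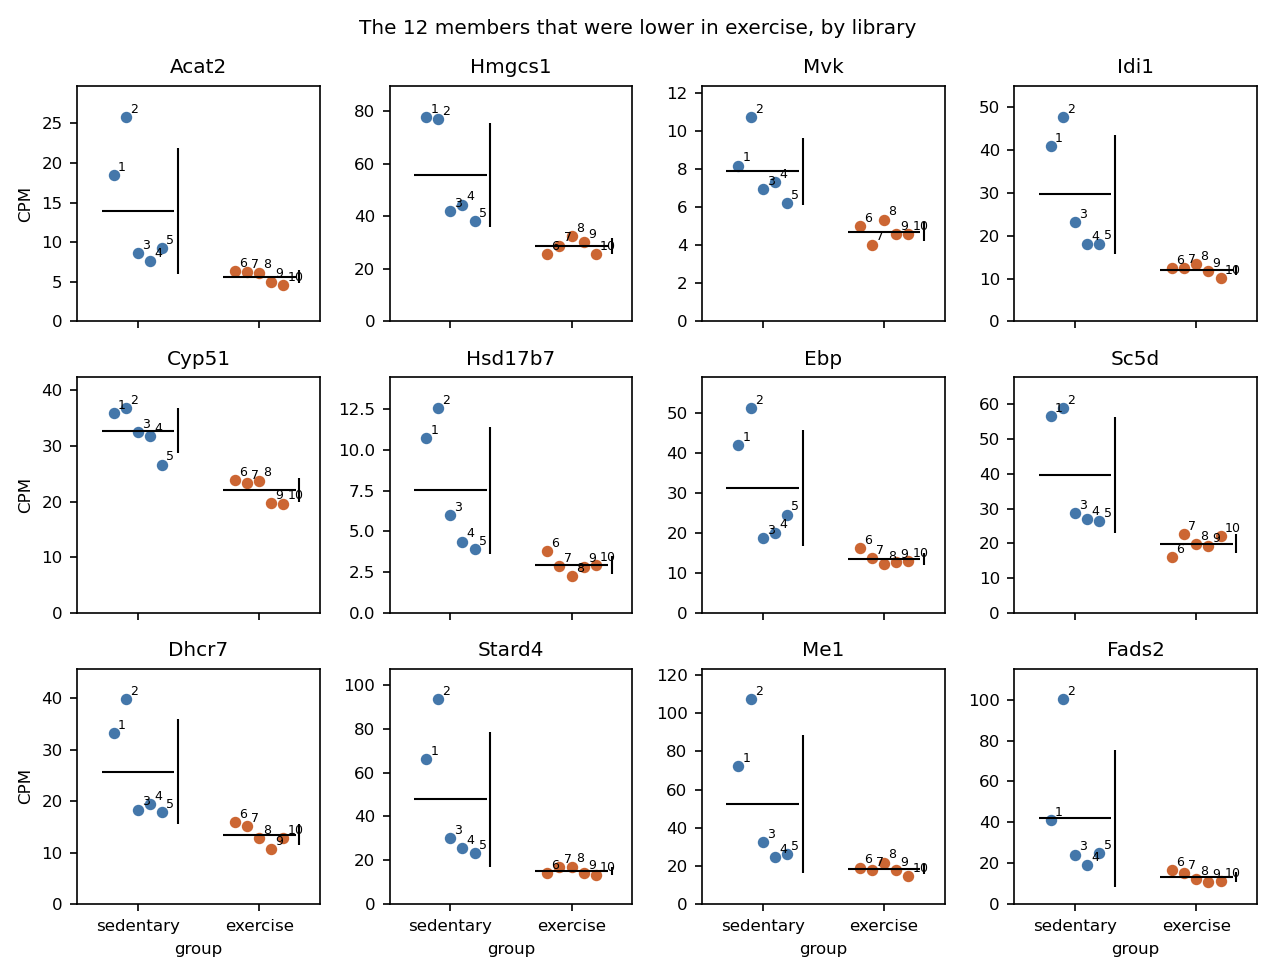
CPM in each of the 10 libraries for the 12 genes that were lower in exercise with all 10 libraries, on linear axes that start at 0. Circles are libraries with their numbers, horizontal lines are group means and vertical lines are the mean ± 1 SD (n = 5). In all 12, sedentary 1 and 2 lie above sedentary 3 to 5, which lie above exercise 6 to 10.

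In fatty acid synthesis, Me1 and Fads2 fell, and the core enzymes did not pass. Me1 (ENSMUSG00000032418), malic enzyme, which makes NADPH, was at 72.3, 107, 32.7, 24.5 and 26.04 CPM in sedentary 1 to 5 and 19.2, 17.8, 21.7, 17.8 and 14.7 CPM in exercise 6 to 10. It averaged 52.6 ± 36.3 and 18.3 ± 2.54 CPM (SD, n = 5), a log2 fold change of -1.52 ± 0.41 (edgeR adjusted p = 0.0343). Me1 was 3.24 times as high in sedentary 1 and 2 as in sedentary 3 to 5, and without that pair its log2 fold change was -0.58 (edgeR adjusted p = 0.0255). Fads2 (ENSMUSG00000024665), the delta-6 desaturase, was at 41.3, 100.1, 24.2, 18.96 and 25.1 CPM in the sedentary and 16.7, 15.2, 12.4, 10.9 and 11.1 CPM in the exercise libraries. Its means of 41.95 ± 33.6 and 13.3 ± 2.55 CPM (SD, n = 5) gave a log2 fold change of -1.66 ± 0.43 (edgeR adjusted p = 0.0321). Sedentary 2 was highest by far, and the lowest sedentary value, 18.96 CPM in sedentary 4, was above the highest exercise value, 16.7 CPM. Without sedentary 1 and 2 the log2 fold change was -0.76 (edgeR adjusted p = 0.0148). Fads1, the delta-5 desaturase beside it in the pathway, spanned 25.2 to 40.1 CPM in the sedentary and 25.05 to 34.03 CPM in the exercise libraries (log2 fold change -0.08, edgeR adjusted p = 0.719), and it did not pass without the pair either (edgeR adjusted p = 0.9996).

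The enzymes that build the chain itself did not pass. Acaca (ENSMUSG00000020532), which makes malonyl-CoA for synthesis, was at 18.6, 25.9, 29.7, 32.9 and 21.98 CPM in the sedentary and 26.7, 33.5, 39.2, 30.3 and 33.1 CPM in the exercise libraries. It averaged 25.8 ± 5.74 and 32.6 ± 4.59 CPM (SD, n = 5; log2 fold change 0.33 ± 0.17, edgeR adjusted p = 0.198) and the groups overlapped. Fasn (ENSMUSG00000025153), fatty acid synthase, was at 69.7, 71.5, 73.9, 78.1 and 58.2 CPM and 81.1, 86.5, 88.95, 80.2 and 77.7 CPM. Every exercise library lay above 4 of the 5 sedentary libraries, and exercise 10 was just below sedentary 4. Fasn averaged 70.3 ± 7.46 and 82.9 ± 4.66 CPM (SD, n = 5; log2 fold change 0.24 ± 0.11, edgeR adjusted p = 0.162). With sedentary 1 and 2 left out, the log2 fold changes were 0.23 for Acaca and 0.27 for Fasn (edgeR adjusted p = 0.362 and 0.148). Acacb, whose malonyl-CoA restrains fatty acid import into mitochondria, spanned 3.72 to 12.4 CPM in the sedentary and 5.18 to 10.6 CPM in the exercise libraries (log2 fold change -0.04, edgeR adjusted p = 0.944). Sedentary 1 and 2 held its 2 highest values, all 5 exercise libraries were above sedentary 3 to 5, and without the pair it did not pass (log2 fold change 0.76, edgeR adjusted p = 0.0935). The log2 ratio of Acaca to Acacb was 2.01 ± 1.04 in the sedentary and 2.28 ± 0.61 in the exercise libraries (SD, n = 5; exact two-sided permutation p = 0.619, adjusted 0.770).

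Of the enzymes that feed or finish the chain, Acly, ATP-citrate lyase, had the widest sedentary range, 131, 241, 662, 915 and 608 CPM in sedentary 1 to 5, with the exercise libraries at 555 to 765 CPM (log2 fold change 0.41, edgeR adjusted p = 0.503). Sedentary 1 and 2 were below every other library. Elovl5 had the same order, at 33.9 and 29.7 CPM in that pair, 74.1 to 93.1 CPM in sedentary 3 to 5 and 72.8 to 91.9 CPM in the exercise libraries (log2 fold change 0.42, edgeR adjusted p = 0.331). Elovl6, which lengthens palmitate, had the opposite order, at 149 and 137 CPM in the pair, 32.4 to 43.98 CPM in sedentary 3 to 5 and 33.7 to 44.2 CPM in the exercise libraries. With the pair its log2 fold change was -1.03 ± 0.45 (edgeR adjusted p = 0.139) and without it 0.11 (edgeR adjusted p = 0.613). Acss2, which activates acetate, spanned 19.7 to 38.7 and 20.1 to 22.5 CPM (log2 fold change -0.26, edgeR adjusted p = 0.317). Without the pair the log2 fold changes of Acly, Elovl5 and Acss2 were -0.07, 0.04 and -0.02 (edgeR adjusted p = 0.799, 0.845 and 0.926).

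The stearoyl-CoA desaturases Scd1 and Scd2 did not pass either. Scd1 (ENSMUSG00000037071) was at 43.7, 7.37, 24.96, 19.3 and 39.4 CPM in the sedentary and 11.1, 16.3, 20.5, 44.2 and 28.5 CPM in the exercise libraries (log2 fold change -0.16 ± 0.48, edgeR adjusted p = 0.820). Its lowest and nearly its highest value were in 2 libraries of the sedentary group, sedentary 2 and sedentary 1, and the exercise group was as scattered. Scd2 (ENSMUSG00000025203) was at 60.7, 43.03, 88.9, 122 and 73.4 CPM and 84.04, 87.8, 90.2, 60.99 and 70.7 CPM (log2 fold change 0.02 ± 0.25, edgeR adjusted p = 0.954). In the other 8 libraries the log2 fold changes of Scd1 and Scd2 were -0.18 and -0.24 (edgeR adjusted p = 0.799 and 0.411). The log2 ratio of Scd1 to Scd2 was -1.68 ± 0.97 in the sedentary and -1.85 ± 0.97 in the exercise libraries (SD, n = 5), a difference of -0.17 (exact two-sided permutation p = 0.770, adjusted 0.770). These paralogs are close in sequence, so the division of reads between them is uncertain. With 5 libraries against 5, the smallest p this permutation test allows is 0.00794. With 8 libraries the differences in the ratios Scd1 to Scd2, Srebf1 to Srebf2 and Acaca to Acacb were -0.06, -0.12 and -0.46 (exact two-sided permutation p = 0.929, 0.464 and 0.250, adjusted 0.929, 0.696 and 0.696).

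**Figure D3:**
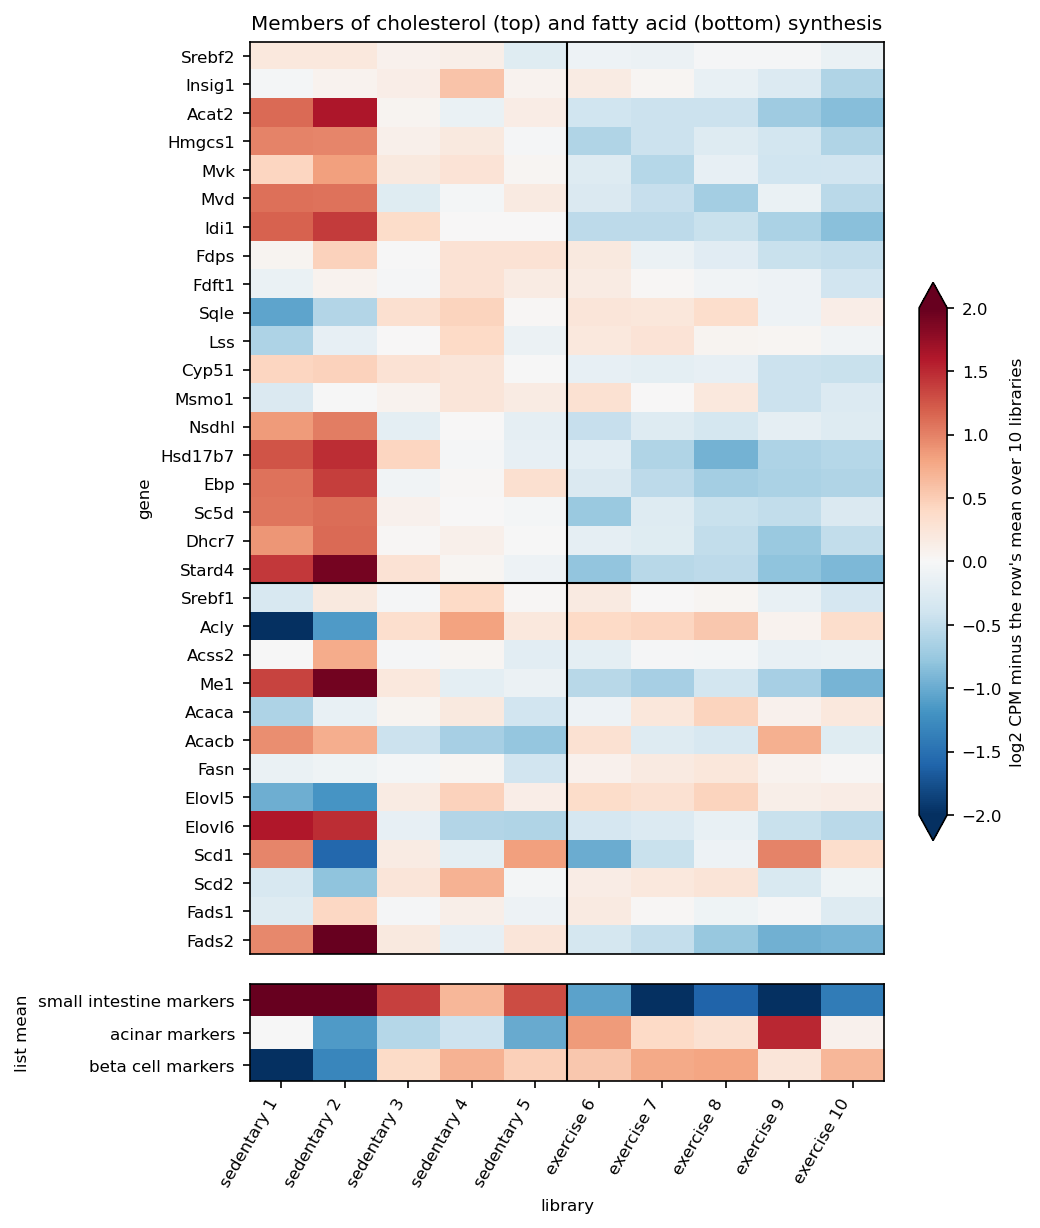
Level of each of the 32 genes in each library, as log2 CPM minus the mean of that gene over the 10 libraries, with sterol genes above and fatty acid genes below, and the mean of 3 marker lists in the lowest rows. Colours stop at 2 and -2. Sedentary 1 and 2 are highest for most sterol genes, and Acly, Elovl5, Sqle and Scd2 are lowest there.

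Averaged over the 19 sterol genes, the mean log2 CPM was 4.91 and 5.15 in sedentary 1 and 2, 4.42 to 4.55 in sedentary 3 to 5 and 3.94 to 4.19 in the exercise libraries. Over the 13 fatty acid genes it was 5.48 and 5.60, 5.30 to 5.46 and 5.20 to 5.40. The sterol average therefore fell into 3 levels that did not overlap, and the fatty acid average did not separate sedentary 3 to 5 from exercise. In all 12 genes that fell, sedentary 1 and 2 were both above sedentary 3 to 5. The same order held for 94.7% of the 1745 genes that were lower. Among the 19 sterol genes as a whole, 13 had sedentary 1 and 2 both above sedentary 3 to 5 and 3 had them both below. Among the 13 fatty acid genes these counts were 4 and 3, and over all genes tested the shares were 33.7% and 29.9%.

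**Figure D4:**
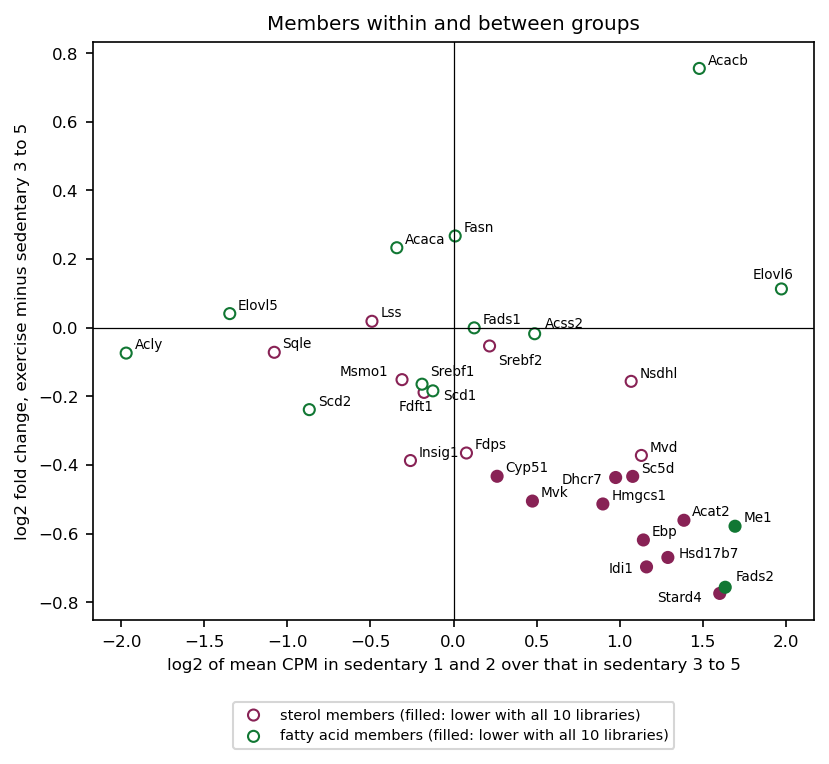
Each point is 1 of the 32 genes. The horizontal axis is the log2 of mean CPM in sedentary 1 and 2 over that in sedentary 3 to 5, and the vertical axis is the log2 fold change of exercise against sedentary 3 to 5. Sedentary 3 to 5 enter both axes. The 12 genes that fell with all 10 libraries (filled) lie at lower right. Elovl6, Acacb, Nsdhl and Mvd, among others, are also higher in sedentary 1 and 2 and did not pass, and Mvd lies close to the filled points.

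The small intestine markers were arranged in the same 3 levels as the sterol average. Their summed level was 2602 to 16998 CPM in the sedentary libraries and 266 to 693 CPM in the exercise libraries. Their mean log2 CPM shared an r squared of 0.797 with the group, so intestinal RNA and exercise cannot be told apart in these libraries. With the intestinal level as a covariate in edgeR, 0 of the 32 genes passed, 0 had an unadjusted p under 0.05, and 9 of the 12 genes that fell turned to log2 fold changes of 0.14 to 0.75. With the acinar level as a covariate (r squared 0.651 with the group), 0 of the 32 passed, 7 sterol genes had an unadjusted p under 0.05, and all 12 kept negative values of -0.57 to -1.46. The part of either cell type in the lower sterol genes was not tested beyond these fits. Of 8 adipocyte markers 2 could be tested and 1, Cidec, was lower, and Adipoq, Plin1, Lep, Retn and Adrb3 were at or near 0 in every library. Of 6 duct markers 2 were lower. With all 10 libraries, no marker of the beta cell (0 of 9), alpha cell (0 of 4), macrophage (0 of 6), endothelial (0 of 5), fibroblast and pericyte (0 of 6) or Schwann cell list (0 of 3 tested) passed in edgeR, and 1, 0, 0, 0, 1 and 1 of them had an unadjusted p under 0.05. Without sedentary 1 and 2, the beta cell marker G6pc2 was higher (log2 fold change 0.85, edgeR adjusted p = 0.0121), 3 beta cell markers were higher at an unadjusted p under 0.05, and the median of the 9 was 0.00. In that fit the duct markers Krt19 and Cftr were lower and Krt7 higher, Cidec was lower, and no marker of the alpha cell, macrophage, endothelial, fibroblast and pericyte or Schwann cell lists passed in edgeR (2, 1, 0, 2 and 1 at an unadjusted p under 0.05).

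Genes of the same pathways outside the 32 were read from 4 further lists. Their counts stand beside 11.4% lower and 2.44% higher over all genes tested with all 10 libraries. Without sedentary 1 and 2 these shares were 8.68% and 4.1%. Of 6 other sterol synthesis genes, 2 fell and 0 rose (median log2 fold change -0.53; 0 were higher and 3 lower at an unadjusted p under 0.05). Cyb5r3, a reductase that supplies electrons through cytochrome b5, and Erg28, a scaffold of the demethylation complex, had log2 fold changes of -1.02 and -0.997 (edgeR adjusted p = 0.0286 and 0.0332). Of 9 genes of SREBP processing and turnover, 1 fell, Erlin1 (log2 fold change -1.27, edgeR adjusted p = 0.0407), none rose (1 was higher at an unadjusted p under 0.05), and the median was 0.18. In the fit of 8 libraries the same 3 genes were lower, with log2 fold changes of -0.53 for Cyb5r3, -0.48 for Erg28 and -0.48 for Erlin1 (edgeR adjusted p = 0.0103, 0.0245 and 0.0391), and the list medians were -0.22 and 0.11.

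Among 16 genes of sterol uptake, storage and efflux, 1 rose and 3 fell (2.44% and 11.4% over all genes tested), with a median log2 fold change of -0.11. Soat2, the enzyme that esterifies cholesterol in intestine and liver, averaged 32.9 ± 28.3 CPM in the sedentary and 1.40 ± 0.759 CPM in the exercise libraries (SD, n = 5; log2 fold change -4.54, edgeR adjusted p = 0.00900). Lipa, the lysosomal lipase that releases cholesterol from its esters, and Nr1h3, the sterol-sensing receptor LXR alpha, had log2 fold changes of -1.88 and -1.33 (edgeR adjusted p = 0.0128 and 0.0277). Vldlr, a lipoprotein receptor, was the gene that rose, from 21.1 ± 10.4 to 50.1 ± 6.88 CPM (SD, n = 5; log2 fold change 1.24, edgeR adjusted p = 0.0307). Without sedentary 1 and 2, 3 genes of this list were higher, Vldlr (log2 fold change 0.87), Abca1 (0.89) and Gramd1a (0.56), and the same 3 were lower (edgeR adjusted p = 0.00881, 0.0151 and 0.0276 for those higher). In that fit the log2 fold change of Soat2 was -3.16, that of Lipa -1.08 and that of Nr1h3 -0.62 (edgeR adjusted p = 0.00124, 0.00917 and 0.00992), and the list median was -0.05.

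Of 22 other fatty acid synthesis genes tested, 2 rose and 2 fell (2.44% and 11.4% over all genes tested), with a median log2 fold change of -0.05. Acsl5, an acyl-CoA synthetase abundant in intestine, averaged 427 ± 344 CPM in the sedentary and 47.4 ± 9.64 CPM in the exercise libraries (SD, n = 5; log2 fold change -3.17, edgeR adjusted p = 0.00900). Mlx, the partner of the glucose-sensing factor ChREBP, had a log2 fold change of -0.91 (edgeR adjusted p = 0.0402). Hsd17b12, the ketoacyl reductase of chain elongation, and Mid1ip1, an activator of acetyl-CoA carboxylase, rose, with log2 fold changes of 0.66 and 0.52 (edgeR adjusted p = 0.0220 and 0.0364). Acsl5 was at 746 and 855 CPM in sedentary 1 and 2 and at 137 to 205 CPM in sedentary 3 to 5, and without the pair its log2 fold change was -1.89 (edgeR adjusted p = 9.75e-04). The same 4 genes passed in that fit, Mlx at -0.37, Hsd17b12 at 0.70 and Mid1ip1 at 0.43 (edgeR adjusted p = 0.0232, 0.00552 and 0.0282), and the median was 0.09. Of the 11 genes that passed in these 4 lists, Soat2, Lipa and Acsl5 passed with any one library left out, and the other 8 did not pass without at least 1 of the libraries. Vldlr, Hsd17b12 and Mid1ip1 did not pass when libraries were scaled by their totals. With limma-voom, Lipa, Nr1h3, Cyb5r3, Erg28, Erlin1, Mlx and Mid1ip1 did not pass, and Mid1ip1 did not pass without a filter on low counts. None of the 11 passed with the small intestine or the acinar level as a covariate.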

How the data were processed

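RNA was extracted on RNeasy Micro columns and made into TruSeq Stranded mRNA libraries, per the labels' protocols. The deposited table holds the estimated counts of the authors for each gene and library, and fastp and kallisto are named, with no version, in the submitters' processing notes. For the build and annotation behind the counts, the sources used here give nothing. Of the values, 12.6% were not whole (tolerance 1e-06), and all were rounded. Genes were kept by the edgeR filter (count minimum 10, total minimum 15), which left 15298 of 52178, and 15692 without sedentary 1 and 2. Libraries were scaled by TMM (factors 0.669 to 1.20) and the groups compared with the edgeR quasi-likelihood test, no covariates, and Benjamini-Hochberg adjustment over all genes tested at 0.05. Log2 ratios within a library used counts plus 0.5 and an exact permutation test.

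The 32 genes, the lists and the rule for naming genes were chosen with earlier results of these data known. By that rule, genes past the threshold in either fit and a few core genes are given in every library, the others by range, and from each other list up to 4 genes past the threshold. Some genes of the pathways are not reported here. Of 163 list symbols 162 were found in the table (Faxdc2 was not). Over the 45 pairs of libraries the highest Spearman correlation was 0.987 and the lowest chi-square, divided by its degrees of freedom, 9.32, so no pair was counted as 1 library. Depth of 15081922 to 23222704 counts left each of the 32 genes with a median count of at least 68.5. Promoters came from RefSeq (GRCm38.p6). The fit was tested on simulated data. R 4.3.3, edgeR 4.0.16, limma 3.58.1 and DESeq2 1.42.0 were used. Alternatives were other scalings, filters and tests, covariates of marker level, acinar markers left out before scaling, and libraries left out.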

Additional observations from a re-analysis of the deposited data

Results flagged for a closer look

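In 3 genes, 1 library lay far from the other 4 of its group by Dixon's test. Srebf2 in sedentary 5 was at a log2 CPM of 6.34 (81.0 CPM), below the other sedentary libraries at 6.68 to 6.80. Insig1 in sedentary 4 was at 6.93 (121.5 CPM), above the others at 6.31 to 6.48. Acss2 in sedentary 2 was at 5.28 (38.7 CPM), above the others at 4.31 to 4.57. Over the 70 groups of 5 tested, chance flags about 1 in 20, or 3.5. None of these 3 genes passed in exercise against sedentary in edgeR with all 10 libraries. No other gene of the set was apart in this way.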

How the results depend on the processing

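No paired analysis was possible because the groups share no replicate number. The count of genes called, 2119 (82.4% lower), was 4567 with library totals (96.5% lower), 3844 with DESeq2, 516 with limma-voom (65.7% lower), 951 to 3610 with 1 library left out, and 0 with the small intestine or the acinar level as a covariate (360 and 1787 at an unadjusted p under 0.05). Without sedentary 1 and 2, 67.9% of calls were lower. The sterol count of 10 was 16 with library totals, 1 (Cyp51) with limma-voom, 0 with either covariate and 0 to 11 with 1 library left out. The fatty acid count of 2 was 0 with limma-voom (3 at an unadjusted p under 0.05) or either covariate and 0 to 2 with 1 library left out. RLE or upper-quartile scaling, robust edgeR, a stricter filter and leaving the acinar markers out before scaling gave 10 and 2, no filter gave 9 and 2, and DESeq2 gave 11 and 2. Library totals moved the median of all genes to -0.34, upper-quartile scaling to 0.11, and the sterol median with library totals was -1.07. With the small intestine level as a covariate, log2 fold changes turned to 0.53 for Acat2, 0.14 for Idi1, 0.38 for Hsd17b7, 0.28 for Ebp, 0.19 for Sc5d, 0.33 for Dhcr7, 0.36 for Stard4, 0.75 for Me1, 0.69 for Fads2, 0.30 for Cyb5r3, 0.21 for Erg28, 0.72 for Erlin1, 0.50 for Lipa, 0.44 for Nr1h3, 0.10 for Acsl5, 0.50 for Mlx and -0.34 for Vldlr (edgeR adjusted p 0.823 to 0.965). That covariate shares most of its spread with the group, and the cause was not tested. Genes that did not pass often changed sign between settings, and no direction is claimed for them. The 3 ratios passed under no alternative. The spread between libraries limits the comparisons, and the share of counting error in it was not tested. The smallest count of a sterol or fatty acid gene in a library was 39, so that share need not be small for the least abundant genes.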

Other observations

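Several genes of fatty acid elongation outside the 32, picked after their values were seen, separated sedentary 1 and 2 from the other 8 libraries, in both directions. Over all genes tested, 29.9% had sedentary 1 and 2 both below sedentary 3 to 5 and 33.7% had them both above. Elovl2, which lengthens polyunsaturated chains, was at 0.717, 3.22, 10.3, 15.8 and 12.04 CPM in sedentary 1 to 5 and at 12.2 to 18.2 CPM in the exercise libraries, and it did not pass in exercise against sedentary (edgeR adjusted p = 0.357). Elovl4 was at 0.418, 1.20, 4.77, 6.52 and 5.29 CPM and 5.03 to 9.38 CPM (edgeR adjusted p = 0.256). Both were lowest in the 2 libraries in which the beta cell markers were lowest. Elovl1, Elovl7 and Hacd1 had the opposite order, with sedentary 1 and 2 above the other 8 libraries. In that pair Elovl1 was at 48.6 and 49.9 CPM, Elovl7 at 26.8 and 39.2 CPM and Hacd1 at 6.81 and 14.7 CPM. They did not pass in exercise against sedentary either (edgeR adjusted p = 0.0922, 0.0707 and 0.311). Abca1, the cholesterol exporter, was at 18.7, 24.9, 79.6, 89.2 and 54.6 CPM in the sedentary and 113, 142, 162, 152 and 107 CPM in the exercise libraries. Its log2 fold change was 1.34 with all 10 libraries (edgeR adjusted p = 0.0512) and 0.89 without sedentary 1 and 2 (edgeR adjusted p = 0.0151).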
